A study of Mus musculus with 30 samples.

Results

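The 10 genes described here are Hif1a, Slc2a1, Hk2, Pfkl, Aldoa, Pgk1, Pgam1, Ldha, Bnip3 and Vegfa, a set of glycolysis and hypoxia genes chosen by name among the 19938 genes measured. Each gene was read from the probe sets that carry its symbol alone, and where a gene had several, from the brightest one on average over the 30 arrays. All 10 genes were measured, and no gene was removed for low signal. They were followed in spleen and lymph node of mice with and without lymphoma, on 30 arrays from 15 mice. The groups were 3 FVB/N mice, the background strain without the transgene, 6 Tg26 mice without symptoms and 6 Tg26 mice with lymphoma, each giving 1 spleen and 1 lymph node. Tg26 mice carry a pNL4-3 HIV-1 provirus from which part of gag-pol is missing, so that they make no infectious virus. The labels state that the mice used were heterozygous, because homozygous animals seldom live to weaning, that all were on FVB/N, and that they were killed between 5 and 12 months of age. The lymphoma colony came from crosses of heterozygous mice that had skin lesions. All Tg26 groups carry the provirus, so lymphoma against asymptomatic mice compares animals that share it.

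In glycolysis a cell takes up glucose and splits it in a series of enzyme steps to pyruvate, which is either passed to the mitochondria or turned to lactate. Hypoxia-inducible factor 1, whose oxygen-regulated subunit is encoded by Hif1a, binds short DNA motifs with the core ACGTG or GCGTG and raises most of these genes when oxygen is low. Its protein is regulated mainly by degradation, so the level of Hif1a RNA is not a measure of its activity. In dividing lymphocytes and in many lymphomas the same genes are also driven by growth signals and by the Myc transcription factor. Slc2a1 encodes the glucose transporter GLUT1, Hk2 encodes hexokinase 2, which traps glucose in the cell, and Pfkl encodes the liver form of phosphofructokinase. Aldoa encodes aldolase A, which splits the sugar, Pgk1 encodes phosphoglycerate kinase, which makes ATP, and Pgam1 encodes phosphoglycerate mutase. Ldha encodes the lactate dehydrogenase subunit that favours lactate. Bnip3 encodes a mitochondrial protein that promotes mitophagy, and Vegfa encodes the growth factor that draws in blood vessels.

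The stretch just before the start of transcription is shown for 5 of the genes, because motifs of hypoxia-inducible factor can lie there and because these 5 genes differed in opposite directions in lymphoma spleen as measured. The sequences are the 250 bases before the RefSeq start in GRCm38.p6, read 5′ to 3′ on the gene's own strand, and capitals mark every ACGTG or GCGTG on either strand, so that the reverse forms CACGT and CACGC are in capitals too.
Slc2a1, chr4:119108495-119108744, plus strand: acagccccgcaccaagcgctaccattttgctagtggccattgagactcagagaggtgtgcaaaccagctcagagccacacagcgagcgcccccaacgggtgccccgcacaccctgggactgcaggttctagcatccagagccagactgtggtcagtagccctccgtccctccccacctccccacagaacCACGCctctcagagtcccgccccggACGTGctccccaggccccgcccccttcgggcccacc
Pgk1, chrX:106186850-106187099, plus strand: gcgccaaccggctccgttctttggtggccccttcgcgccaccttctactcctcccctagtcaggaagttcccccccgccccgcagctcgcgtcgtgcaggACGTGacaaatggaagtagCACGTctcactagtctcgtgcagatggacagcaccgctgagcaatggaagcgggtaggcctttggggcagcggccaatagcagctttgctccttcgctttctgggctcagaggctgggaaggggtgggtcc
Pgam1, chr19:41911621-41911870, plus strand: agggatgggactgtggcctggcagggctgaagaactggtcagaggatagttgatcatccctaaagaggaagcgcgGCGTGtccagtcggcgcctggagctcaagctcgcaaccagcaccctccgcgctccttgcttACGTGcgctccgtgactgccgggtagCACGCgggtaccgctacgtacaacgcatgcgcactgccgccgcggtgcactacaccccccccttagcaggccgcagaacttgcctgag
Bnip3, chr7:138909507-138909756, minus strand: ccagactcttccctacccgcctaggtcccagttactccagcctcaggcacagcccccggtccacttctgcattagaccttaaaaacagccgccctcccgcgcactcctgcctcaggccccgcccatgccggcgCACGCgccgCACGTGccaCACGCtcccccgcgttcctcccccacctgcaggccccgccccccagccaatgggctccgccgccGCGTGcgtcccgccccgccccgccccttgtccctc
Vegfa, chr17:46032378-46032627, minus strand: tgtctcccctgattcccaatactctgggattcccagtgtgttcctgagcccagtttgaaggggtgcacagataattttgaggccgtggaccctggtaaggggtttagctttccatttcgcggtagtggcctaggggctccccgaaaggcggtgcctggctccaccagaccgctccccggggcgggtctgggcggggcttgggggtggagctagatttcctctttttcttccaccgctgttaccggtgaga
The Slc2a1 and Pgk1 stretches held 2 separate runs in capitals each, Pgam1 held 3 and Bnip3 held 4, of which the CACGTG run carries the motif on both strands. The Vegfa stretch at its outer start held 0, which says only that these letters are not in this window, while a second RefSeq start of Vegfa had 2. Over all RefSeq starts of the 10 genes, 12 of 14 stretches held at least 1 motif (85.7%), and all 10 genes had a motif at 1 start or more. Among these, 2 Aldoa stretches overlap and hold the same motif, which is thus counted 2 times. Of all 32841 mouse stretches of this length in the same table, 38.6% held one. Those stretches were not matched to the 10 genes for base content, so the 2 shares are not a test of enrichment. The arrays measure RNA only, so a motif is a description of the sequence and not of binding.

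Several arrays stood apart in ways that touch these genes, and the 15 lymph nodes most of all. The mean log2 level of 17 adipose and muscle genes reached 9.78, 9.37 and 8.50 in asymptomatic nodes 3, 4 and 5, 8.71 in FVB/N node 2 and 7.52 in asymptomatic node 2, while every other node lay between 6.02 and 6.65. Salivary gland genes were raised, at 6.84 to 10.29, in FVB/N nodes 2 and 3, asymptomatic nodes 2 and 3 and lymphoma node 5. Pancreas genes stood at 12.28 and 13.56 in asymptomatic nodes 5 and 6. Together these made 8 nodes with a raised neighbouring-tissue list, meaning over 1 log2 unit above that list's median. The pancreas list was also raised in the spleens of asymptomatic mice 4 and 5 (7.66 and 8.76, against 6.10 to 7.02 in the other spleens). Xist, the RNA of the inactive X chromosome in female cells, was at 10.91 to 11.93 in both tissues of lymphoma mice 3 and 5 and at 4.66 to 5.75 in every other array. The spleen array of lymphoma mouse 4 had the red pulp macrophage gene Spic at 5.36, against 7.37 to 8.92 in the other lymphoma spleens, and one label field coded it like FVB/N although title and description gave lymphoma. Asymptomatic node 6 had Spic at 10.33 and the erythroid gene Alas2 at 11.48, above every spleen (up to 9.44 and 10.92). Its lymph node genes Glycam1 (8.22), Lyve1 (8.24) and Prox1 (6.81) were above every spleen as well (up to 6.07, 5.96 and 5.73). In the spleen of lymphoma mouse 4 Glycam1 (6.05) and Lyve1 (5.96) were near the other spleens, but lymphoma nodes went as low as 5.8 and 5.84. These 2 arrays are named below as against their tissue label, on Spic and not on these node genes. Spic by itself did not separate the tissues. FVB/N nodes 2 and 3 had it at 8.07 and 8.89, against 7.53 to 7.93 in the FVB/N spleens. Asymptomatic nodes 4 and 5 (9.20 and 9.12) lay within the range of the asymptomatic spleens (8.90 to 9.44). The name is only a label for the 2 arrays, and whether their tissue labels are wrong was not tested. Mice 1 to 3 of each state formed batch A, and mice 4 to 6, with no FVB/N among them, batch B. With lymphoma, 20 of 21 proliferation genes and 11 of 12 early B cell genes rose in spleen and 12 of 12 T cell genes fell, and in lymph node these counts were 21, 10 and 12. The T cell list averaged 9.51 to 9.79 in asymptomatic and 6.03 to 7.20 in lymphoma spleens, the proliferation list 7.67 to 8.28 and 9.17 to 10.31, and their part in the results below was not tested. These are whole tissues, so fewer cells of a type and less RNA per cell cannot be told apart.

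**Figure D1:**
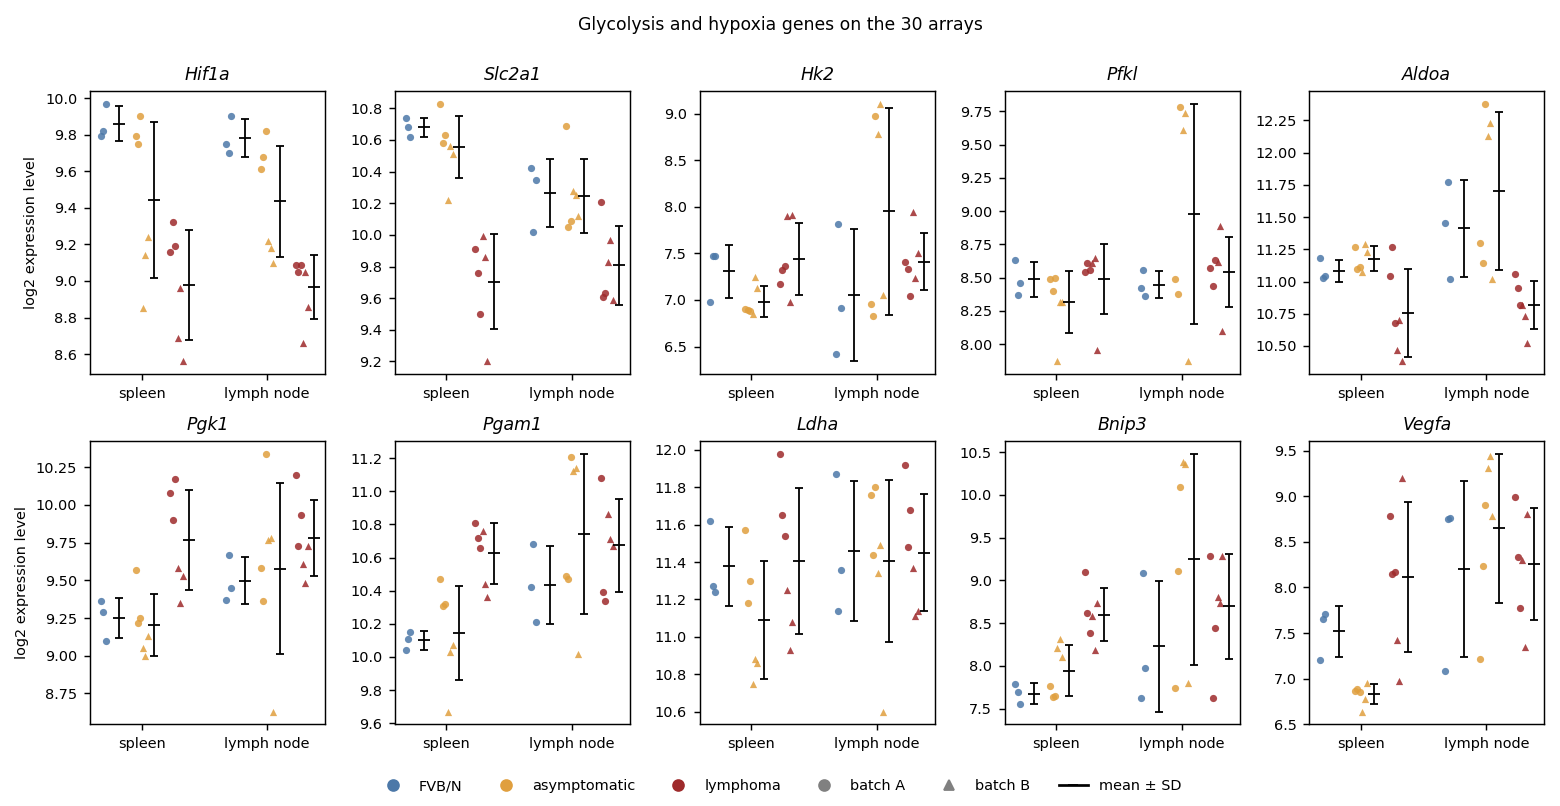
Log2 expression level (vertical axis) of each of the 10 genes on every array, by tissue (horizontal axis) and state (colour); circles are batch A, triangles are batch B, and the black bar is the group mean ± SD. Slc2a1 in the 6 lymphoma spleens lies between 9.20 and 9.99, below all 6 asymptomatic spleens (10.22 to 10.83), while the asymptomatic nodes spread widely for Hk2, Pfkl, Aldoa and Bnip3.

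Levels are log2 values, on which a difference of 1 is a 2-fold change, and they are compared only within a gene because probe sets differ in brightness. Hif1a was highest in FVB/N (9.86 ± 0.09 in spleen and 9.78 ± 0.11 in lymph node, SD, n = 3), intermediate in asymptomatic Tg26 mice (9.44 ± 0.43 and 9.43 ± 0.30, n = 6) and lowest with lymphoma (8.98 ± 0.30 and 8.97 ± 0.17, n = 6). The gap between FVB/N and asymptomatic means was within the SD of the latter in spleen and above it in lymph node. Levels in both tissues differed by batch. The asymptomatic spleens lay between 9.75 and 9.90 in batch A and between 8.85 and 9.24 in batch B. The asymptomatic nodes lay between 9.61 and 9.82 in batch A and between 9.10 and 9.22 in batch B. All FVB/N mice were in batch A, where asymptomatic minus FVB/N was -0.05 in spleen and -0.08 in node as measured. Slc2a1 was likewise lowest with lymphoma in spleen, with 10.68 ± 0.06 in FVB/N, 10.56 ± 0.20 in asymptomatic and 9.70 ± 0.30 in lymphoma mice. In lymph node Slc2a1 was 10.26 ± 0.21, 10.25 ± 0.24 and 9.81 ± 0.25. The gap between its first 2 node groups was smaller than either SD, and so was the gap between the lymphoma tissues.

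Among the sugar-handling enzymes, Hk2 had its highest group mean in asymptomatic nodes (7.95 ± 1.11) and its lowest in asymptomatic spleens (6.98 ± 0.17), with no neighbouring pair of group means further apart than both SDs. Pfkl lay between 8.32 and 8.54 in 5 groups and at 8.98 ± 0.83 in asymptomatic nodes. Aldoa had its lowest means in lymphoma tissues (10.76 ± 0.34 in spleen and 10.82 ± 0.19 in node) and its highest in asymptomatic nodes (11.70 ± 0.61). Its spleen means of 11.18 ± 0.09 in asymptomatic and 11.08 ± 0.09 in FVB/N mice lay between. The wide spread of these 3 enzymes in asymptomatic nodes came from mice 3, 4 and 5, which gave Hk2 8.98, 8.78 and 9.11 against 6.83 to 7.05 in the other 3 nodes. Pfkl in those 3 nodes was 9.78, 9.61 and 9.74, against 7.87 to 8.49 in the others, and Aldoa was 12.38, 12.13 and 12.23, against 11.02 to 11.30. The same 3 nodes had the highest adipose and muscle averages of the 6.

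Of the lower steps, Pgk1 had its highest means in lymphoma (9.77 ± 0.33 in spleen and 9.78 ± 0.25 in node) and its lowest in asymptomatic spleen (9.20 ± 0.20). Pgam1 ran from 10.10 ± 0.06 in FVB/N spleen to 10.74 ± 0.49 in asymptomatic nodes, with lymphoma spleen at 10.63 ± 0.18. Ldha moved least in its group means, from 11.09 ± 0.32 in asymptomatic spleen to 11.46 ± 0.37 in FVB/N node, and no neighbouring pair in that order was separated by more than both SDs. Bnip3 was 7.68 ± 0.12 in FVB/N spleen, 7.95 ± 0.30 in asymptomatic spleen and 8.60 ± 0.31 in lymphoma spleen, and had its highest mean in asymptomatic nodes (9.25 ± 1.24). Vegfa was lowest in asymptomatic spleens (6.83 ± 0.11), followed by FVB/N spleens (7.52 ± 0.28), a gap larger than both SDs. Its other 4 groups lay between 8.12 and 8.65 with SDs of 0.62 to 0.96.

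Lymphoma spleens were compared with asymptomatic Tg26 spleens to ask what accompanies tumour in mice that share the transgene. Slc2a1, Hif1a and Aldoa fell, and none of the 10 genes rose in the fit with surrogate variables, the correction for unexplained differences between arrays that the study names. The 3 falls among 10 genes stand against 7.25% of all 19938 genes that fell in this comparison and 8.58% that rose. Pgk1, Pgam1 and Vegfa were higher in the arrays as measured, and whether they pass the test depends on that correction.

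The glucose transporter gene Slc2a1 gave the clearest difference. Its asymptomatic spleens had a lowest level of 10.22, a median of 10.57 and a highest level of 10.83, its lymphoma spleens 9.20, 9.81 and 9.99, and its FVB/N spleens 10.74, 10.68 and 10.62. Every lymphoma spleen lay below every asymptomatic and FVB/N spleen, which 4.96% of all genes also showed against asymptomatic mice. The fitted difference was -0.71 (SE 0.14, limma adjusted p = 0.000695). It was called in 15 of 15 fits that each left out 1 mouse (-1.03 to -0.62), and within batch A alone (-0.96, adjusted p = 0.00312) and batch B alone (-0.75, adjusted p = 0.0384).

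Hif1a in asymptomatic spleens had a lowest level of 8.85, a median of 9.49 and a highest of 9.90, and in lymphoma spleens 8.56, 9.06 and 9.32. Batch A and batch B lay on different levels in both groups, and the groups overlapped. In batch A the lymphoma spleens (9.16 to 9.32) were all below the asymptomatic ones (9.75 to 9.90), while in batch B 8.56 to 8.96 stood against 8.85 to 9.24. The fitted fall was -0.31 (SE 0.10, limma adjusted p = 0.0415), and with a batch term in place of surrogate variables it was -0.46 (adjusted p = 0.000558). Within batch A it was -0.59 (adjusted p = 0.00066) and within batch B -0.34 (adjusted p = 0.22). The call was lost in 5 of 15 fits, without asymptomatic mouse 2 or 3, FVB/N mouse 1 or 3 or lymphoma mouse 1 (adjusted p up to 0.25).

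Aldoa in asymptomatic spleens had a lowest level of 11.07, a median of 11.17 and a highest of 11.29, and in lymphoma spleens 10.38, 10.69 and 11.27. Lymphoma mouse 2 (11.27) overlapped the asymptomatic range, and lymphoma mouse 1 (11.04) lay just below it. Its fitted fall was -0.66 (SE 0.16, limma adjusted p = 0.00452), and it was -0.42 and not called with a batch term (adjusted p = 0.143) or with the groups alone (adjusted p = 0.171). Leaving out asymptomatic mouse 6 or lymphoma mouse 1 also ended the call (adjusted p up to 0.138). The call was also lost without the 2 mice with high Xist (-0.38, adjusted p = 0.123). With a batch term together with the levels of the neighbouring-tissue lists it was called at -0.38 (adjusted p = 0.0155).

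Vegfa showed the largest measured rise of the 10. Its asymptomatic spleens lay between 6.64 and 6.95 with a median of 6.86, its lymphoma spleens between 6.98 and 9.20 with a median of 8.16, and its FVB/N spleens at 7.20, 7.65 and 7.71. The lymphoma and asymptomatic groups did not overlap, which 4.59% of all genes showed in this direction, but lymphoma mouse 5 (6.98) and mouse 4 (7.42) were near the asymptomatic range. The measured difference of 1.29 shrank to 0.29 with surrogate variables (SE 0.27, limma adjusted p = 0.541). With the groups alone it was called (adjusted p = 0.0132), as with a batch term (adjusted p = 0.0123). It was 1.5 within batch A (adjusted p = 0.0356) and 1.08 within batch B (adjusted p = 0.239). With surrogate variables it was called in 5 of 15 fits without 1 mouse, namely for asymptomatic mice 5 and 6 and lymphoma mice 3, 4 and 5 (0.13 to 1.54 over the 15). Without both mice with high Xist, lymphoma mice 3 and 5, it was 1.78 (adjusted p = 4.19e-05).

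The ATP-making enzyme gene Pgk1 had asymptomatic spleens from 9.0 to 9.57 with a median of 9.18 and lymphoma spleens from 9.35 to 10.17 with a median of 9.74. Only asymptomatic mouse 1 (9.57) reached into the lymphoma range. The measured difference was 0.57, against a fitted 0.23 (SE 0.13, limma adjusted p = 0.244), and a batch term gave 0.57 (adjusted p = 0.0105). Leaving out any of asymptomatic mice 5 and 6 and lymphoma mice 4 and 5 gave a call. Over all 15 fits without 1 mouse the difference ran from 0.06 to 0.56. Pgam1 lay between 9.67 and 10.47 in asymptomatic and between 10.36 and 10.81 in lymphoma spleens, again with asymptomatic mouse 1 as the overlapping array. It differed by 0.48 as measured and by 0.18 with surrogate variables (SE 0.12, limma adjusted p = 0.329), and was called with a batch term (adjusted p = 0.0474) and without asymptomatic mouse 6 (0.51, adjusted p = 0.0181).

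Bnip3 and Hk2 changed sign between the measured and the fitted difference. Bnip3 lay between 7.64 and 8.31 in asymptomatic and between 8.19 and 9.10 in lymphoma spleens, a measured difference of 0.66 and a fitted one of -0.23 (SE 0.20, limma adjusted p = 0.513). Hk2 lay between 6.85 and 7.25 and between 6.98 and 7.91, a measured 0.46 and a fitted -0.39 (SE 0.24, limma adjusted p = 0.316). Neither was called with surrogate variables, with the groups alone or with a batch term. Pfkl (0.05, SE 0.21) and Ldha (0.17, SE 0.12) were not called either (limma adjusted p = 0.91 and 0.411), though Ldha was called without asymptomatic mouse 6 or lymphoma mouse 5 (lowest adjusted p = 0.0111).

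The counts for spleen moved with the terms in the fit. With groups alone Vegfa and Pgk1 rose, 2 of 10 against 7.62% of all genes, and Slc2a1 fell, 1 of 10 against 8.17%. With a batch term Vegfa, Pgk1 and Pgam1 rose (9.85% of all genes) and Slc2a1 and Hif1a fell (10.3%). With a batch term and the neighbouring-tissue list levels, 5 of the 10 rose (Vegfa, Bnip3, Pgk1, Hk2 and Pgam1), against 11.2% of all genes, and Slc2a1, Hif1a and Aldoa fell, against 12.2%. The same 8 genes were called, in the same directions, when the 8 nodes with a raised list were left out, where 11.1% of all genes rose and 11.4% fell. Without the 2 arrays named as against their tissue label, 1 rose, Pgk1 (0.49, adjusted p = 0.0158), against 8.78% of all genes. In that fit 3 fell, Slc2a1 (-0.79), Hif1a (-0.46) and Aldoa (-0.48), against 8.73%. Without the 2 mice with high Xist, Vegfa and Pgk1 rose (11.6% of all genes) and Slc2a1 and Hif1a fell (12.0%). Leaving out the 2 spleens with raised pancreas genes gave the falls of Slc2a1, Hif1a and Aldoa as the only calls. The share of all genes called in that fit is not given here. Same-numbered spleens of the 2 states, which are different mice, deviated together (median correlation 0.276). Spleens of other numbers in the same batch did so nearly as much (median 0.264), so number and batch cannot be told apart. With the mouse number as a block Vegfa (1.29, adjusted p = 0.0179), Pgk1 (0.57, adjusted p = 0.0194) and Ldha (0.31, adjusted p = 0.0302) rose, against 10.1% of all genes. Slc2a1 and Hif1a fell in that fit, against 10.7%, while Aldoa (-0.42, adjusted p = 0.163) was not called. The erythroid list ranged from 6.54 to 10.16 over the lymphoma spleens and from 7.60 to 8.72 over the asymptomatic ones, and its part in these differences was not tested.

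**Figure D2:**
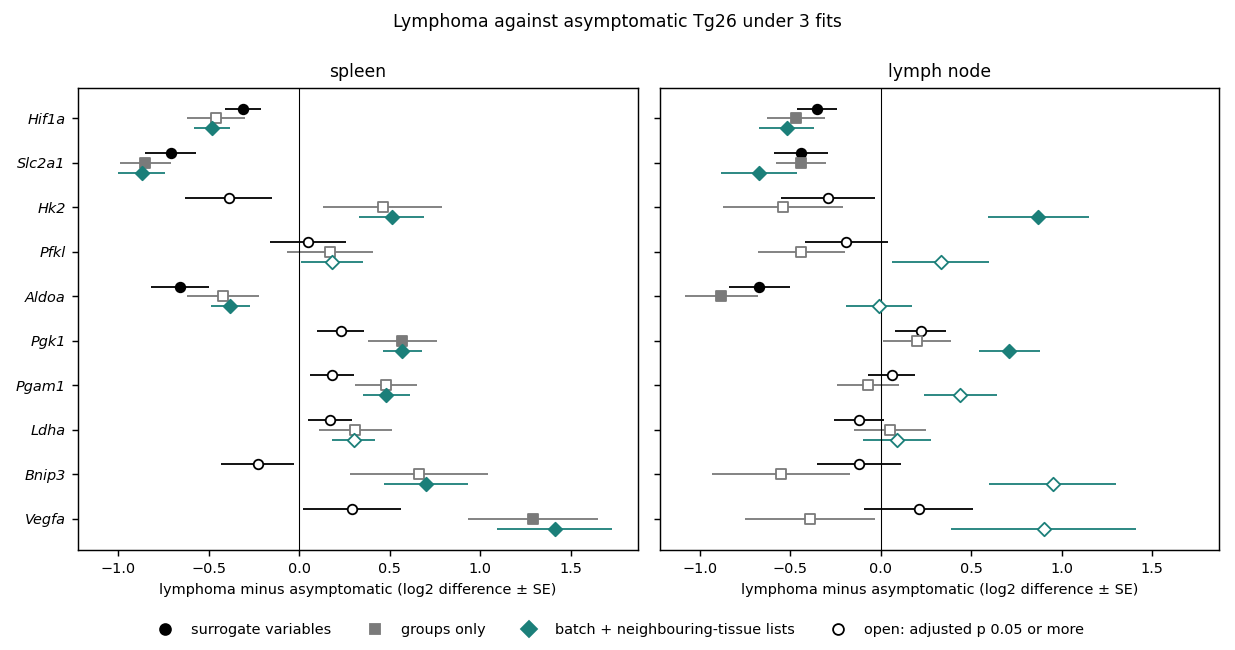
Log2 difference of lymphoma minus asymptomatic mice (horizontal axis, ± SE) for each gene (vertical axis) in spleen and lymph node, from fits with surrogate variables, with groups alone, and with batch and neighbouring-tissue lists; filled symbols have an adjusted p under 0.05. Slc2a1 and Hif1a lie below 0 in all 3 fits in both tissues. Hk2, Bnip3, Vegfa, Aldoa and Pgk1 are among the genes that move across 0 or by more than their SE between fits.

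In lymph node, lymphoma was set against asymptomatic mice in the same way, and Hif1a, Slc2a1 and Aldoa again were the genes that fell, while none rose. These 3 of 10 stand against 12.5% of all genes that fell there and 11.6% that rose. Hif1a was below its asymptomatic range in every lymphoma node. Aldoa differed by the largest amount of the 3, and its highest asymptomatic nodes were those with the highest adipose and muscle averages.

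Hif1a in asymptomatic nodes had a lowest level of 9.10, a median of 9.42 and a highest of 9.82, in lymphoma nodes 8.66, 9.05 and 9.09, and in FVB/N nodes 9.75, 9.70 and 9.90. The lymphoma and asymptomatic groups did not overlap, although they came close, and 5.81% of all genes showed such a gap in this direction. The fitted fall was -0.35 (SE 0.11, limma adjusted p = 0.0277), and a batch term gave -0.47 (adjusted p = 0.000322). It was -0.63 within batch A (adjusted p = 0.000323) and -0.31 within batch B (adjusted p = 0.183). Leaving out 1 mouse ended the call in 7 of 15 fits, for asymptomatic mouse 1, 2 or 4, any FVB/N mouse and lymphoma mouse 1 (adjusted p up to 0.142). Over all 15 fits the difference ran from -0.47 to -0.27.

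Slc2a1 lay between 10.05 and 10.69 with a median of 10.19 in asymptomatic nodes and between 9.59 and 10.21 with a median of 9.73 in lymphoma nodes. Lymphoma mouse 1 (10.21) was the array that overlapped the asymptomatic range. The difference was -0.44 as measured and as fitted (SE 0.15, limma adjusted p = 0.0365). It was of like size within batch A (-0.46, adjusted p = 0.121) and batch B (-0.42, adjusted p = 0.161), where it was not called. The call was lost without asymptomatic mouse 1 or 4 or FVB/N mouse 1 or 2 (adjusted p up to 0.321), and on quantile normalized values (-0.50, adjusted p = 0.0524).

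Aldoa lay between 11.02 and 12.38 with a median of 11.71 in asymptomatic nodes and between 10.52 and 11.06 with a median of 10.82 in lymphoma nodes. The highest lymphoma node (11.06, mouse 1) overlapped only the node of asymptomatic mouse 6 (11.02), the array with high Spic and Alas2. The fitted fall was -0.67 (SE 0.17, limma adjusted p = 0.00619). With a batch term and the neighbouring-tissue lists in the fit it was -0.01 (SE 0.18, adjusted p = 0.989). Without the 8 nodes with a raised list, which leaves 1 asymptomatic and 1 FVB/N node whose spread is taken from the other groups, it was -0.49 (adjusted p = 0.109). Leaving out asymptomatic mouse 6, FVB/N mouse 1 or lymphoma mouse 5 ended the call as well (adjusted p up to 0.0864), and so did leaving out both mice with high Xist (-0.45, adjusted p = 0.152).

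The other 7 genes did not pass in lymph node, and their adjusted p ran from 0.287 (Pgk1) to 0.79 (Pgam1). Vegfa was -0.39 as measured and 0.21 as fitted (SE 0.30), with 0.24 in batch A and -1.02 in batch B as measured. The lowest Vegfa of the asymptomatic nodes was that of mouse 1 (7.22), a node with no raised neighbouring-tissue list, and the lowest of the FVB/N nodes was that of mouse 1 (7.09), likewise. Against those nodes, the fit without the raised nodes put Vegfa 1.95 higher in lymphoma nodes (SE 0.42, adjusted p = 0.00421), 1 of 10 against 6.80% of all genes, which rests on 1 asymptomatic node. With surrogate variables Vegfa was called without asymptomatic mouse 6 or lymphoma mouse 3 or 5 (up to 1.2), Pgk1 without asymptomatic mouse 6 and Pfkl without lymphoma mouse 2. Without both mice with high Xist Vegfa rose (1.20, adjusted p = 0.0119), 1 of 10 against 10.9% of all genes, and Hif1a and Slc2a1 fell, 2 of 10 against 11.8%. With batch and neighbouring-tissue lists, Hk2 (0.87, adjusted p = 0.0304) and Pgk1 (0.71, adjusted p = 0.00406) were higher, 2 of 10 against 8.18% of all genes, and Hif1a and Slc2a1 lower, 2 of 10 against 8.04%.

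**Figure D3:**
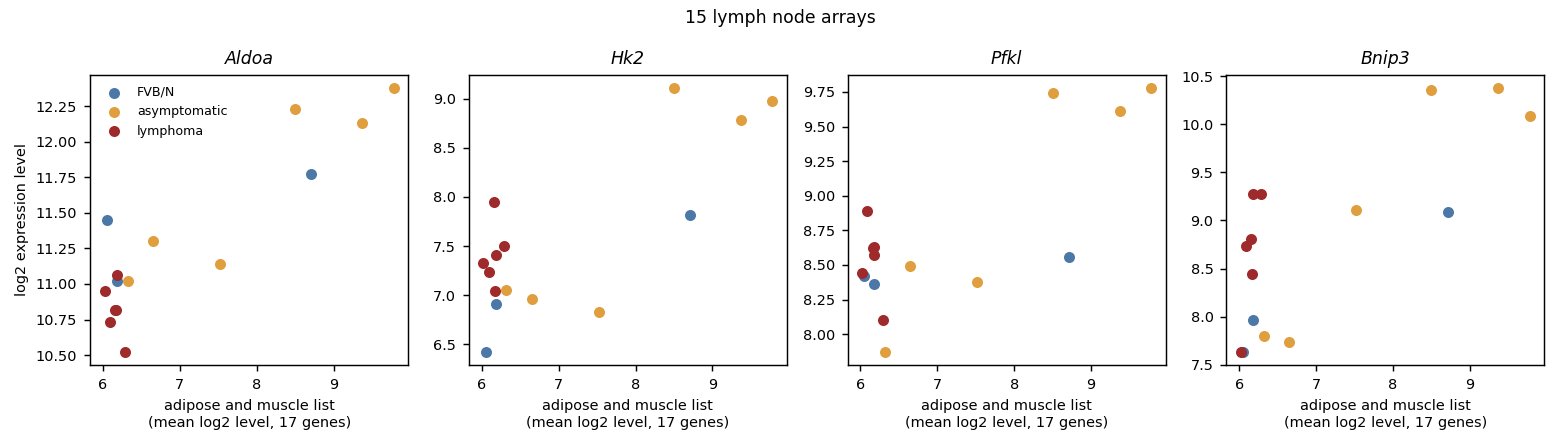
Log2 level of Aldoa, Hk2, Pfkl and Bnip3 (vertical axes) on the 15 lymph node arrays against the mean log2 level of 17 adipose and muscle genes on the same array (horizontal axes), coloured by state. The nodes of asymptomatic mice 3, 4 and 5, at list levels of 8.50 to 9.78, hold the 3 highest levels of all 4 genes, while FVB/N node 2, at a list level of 8.71, lies below them in each (Aldoa 11.77, Hk2 7.82, Pfkl 8.56 and Bnip3 9.09).

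The plot of node levels against the adipose and muscle list sets both on the same arrays. Bnip3 was 10.09, 10.38 and 10.36 in asymptomatic nodes 3 to 5 and 9.11 in node 2, against 7.74 and 7.80 in nodes 1 and 6. In lymphoma nodes Bnip3 ran from 7.63 to 9.28 while the list stayed between 6.02 and 6.29. The fat gene Adipoq was at 10.03, 10.82 and 10.67 in asymptomatic nodes 3, 4 and 5 and at 7.07 in FVB/N node 2. The muscle gene Ckm was at 10.25, 8.60 and 6.83 in those 3 nodes and highest in FVB/N node 2 (10.40), and the muscle gene Acta1 was at 10.54, 9.23 and 7.66 there and at 10.93 in FVB/N node 2. Asymptomatic node 5 had Aldoa at 12.23 and a list average of 8.50, and Ckm and Acta1 are only part of the 17 genes of that list. The part of fat or muscle in these levels was not tested.

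Whether the lymphoma difference was larger in one tissue than in the other was tested directly, and no member passed. None of the 10 was called, against 0.572% of all genes, and by limma 0 had an unadjusted p under 0.05. For Slc2a1 the node difference was 0.27 above the spleen difference (SE 0.19, adjusted p = 0.645), with the measured fall at -0.85 in spleen and -0.44 in node. For Vegfa the measured differences were 1.29 and -0.39, and the fitted contrast was -0.08 (SE 0.37, adjusted p = 0.966). The alternative fits of this contrast also called 0 of the 10.

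Asymptomatic Tg26 mice were set against FVB/N to see what the transgene goes with in mice without symptoms. Asymptomatic mice 4 to 6 were in batch B, which held no FVB/N mouse, so transgene and batch are partly mixed in this comparison. In spleen 0 of the 10 genes were called by limma, against 0.617% of all genes, and Hk2 and Vegfa had an unadjusted p under 0.05. Vegfa was lower in all 6 asymptomatic spleens (6.64 to 6.95) than in the 3 FVB/N spleens (7.20 to 7.71), a gap that 4.04% of all genes showed in this direction. Its fitted difference was -0.84 (SE 0.27, adjusted p = 0.244), and -0.65 within batch A as measured. It was called without FVB/N mouse 1 or lymphoma mouse 2 (lowest adjusted p = 0.0273). Hk2 differed by -0.63 (SE 0.23, adjusted p = 0.377) and by -0.32 as measured. The other 8 had fitted differences between -0.17 and 0.13.

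In lymph node Bnip3 was higher in asymptomatic than in FVB/N mice, 1 of 10 against 1.34% of all genes that rose. Its FVB/N nodes were 7.63, 9.09 and 7.97, and its asymptomatic nodes ran from 7.74 over a median of 9.60 to 10.38, so that the groups overlapped. The fitted rise was 0.89 (SE 0.22, limma adjusted p = 0.0345). It was 0.76 with the mouse number as a block (adjusted p = 0.668), -0.05 (adjusted p = 0.98) with batch and neighbouring-tissue lists in the fit, and 5 of 15 fits without 1 mouse kept the call. It was lost without asymptomatic mouse 2, 3 or 4, FVB/N mouse 2 or 3 or any lymphoma mouse except mouse 5 (adjusted p up to 0.281). Over all 15 fits the Bnip3 difference ran from 0.58 to 1.29. Pfkl (0.79, SE 0.22, adjusted p = 0.0621) and Pgam1 (0.42, SE 0.12, adjusted p = 0.0788) came near the threshold. Without the 2 arrays named as against their tissue label Pfkl and Pgam1 were called, against 1.91% of all genes that rose. Bnip3 was not called in that fit (1.06, adjusted p = 0.0576).

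Lymphoma was also set against FVB/N, with the same lymphoma arrays as above, so the values below share arrays with those given before. In spleen Hif1a, Slc2a1 and Hk2 were called lower, 3 of 10 against 5.25% of all genes that fell and 7.10% that rose. Hif1a in FVB/N spleens was 9.79, 9.82 and 9.97, above all lymphoma spleens as 12.5% of all genes were, and the fitted fall was -0.46 (SE 0.13, limma adjusted p = 0.0179). Slc2a1 fell by 0.70 (SE 0.17, adjusted p = 0.0068) and was called in 14 of 15 fits without 1 mouse, the exception being FVB/N mouse 1 (adjusted p = 0.0871). Hif1a lost its call without FVB/N mouse 3 or lymphoma mouse 1 (adjusted p up to 0.119). For Hk2 the fitted -1.01 (SE 0.29, adjusted p = 0.0213) had the opposite sign to the measured 0.14, and FVB/N spleens at 6.98, 7.47 and 7.47 lay inside the lymphoma range of 6.98 to 7.91. The Hk2 call was absent with groups alone (0.14, adjusted p = 0.894) and with a batch term (-0.05, adjusted p = 0.971). It held in 6 of 15 fits without 1 mouse. It was lost without asymptomatic mouse 1, 4, 5 or 6, FVB/N mouse 2 or lymphoma mouse 1, 3, 4 or 5. Over all 15 fits the Hk2 difference ran from -1.32 to -0.30. Bnip3 and Pgam1 were higher in all lymphoma spleens than in all FVB/N spleens, a gap that 8.38% of all genes showed in this direction, with fitted differences of -0.25 (adjusted p = 0.631) and 0.31 (adjusted p = 0.171).

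Other fits of this comparison called genes higher that the fit with surrogate variables did not. Pgk1 (fitted 0.36, adjusted p = 0.152) was called higher with a batch term (0.72, adjusted p = 0.0148), 1 of 10 against 7.50% of all genes. It was also called with batch and neighbouring-tissue lists (0.71, adjusted p = 0.000453), within batch A (0.80, adjusted p = 0.0139), with the mouse number as a block (0.73, adjusted p = 0.0289), without the 2 arrays against their tissue label (0.59, adjusted p = 0.012) and without the 2 mice with high Xist (0.57, adjusted p = 0.0146). Pgam1 was called higher with batch and lists (0.58, adjusted p = 0.0124), within batch A (0.63, adjusted p = 0.0497) and with the number block (0.69, adjusted p = 0.0475). Without the 8 raised nodes Vegfa (1.48, adjusted p = 0.00389), Bnip3 (1.22, adjusted p = 0.0182), Pgam1 (0.79, adjusted p = 0.0107) and Pgk1 (0.65, adjusted p = 0.0105) were called higher, 4 of 10 against 9.18% of all genes. Vegfa was -0.55 and Bnip3 -0.25 with surrogate variables, so both changed sign.

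In lymph node Pgk1 and Pgam1 were called higher with lymphoma than in FVB/N, 2 of 10 against 8.59% of all genes that rose and 7.98% that fell. Pgk1 in FVB/N nodes was 9.37, 9.67 and 9.45, and in lymphoma nodes it ran from 9.48 to 10.20, with a fitted rise of 0.57 (SE 0.17, limma adjusted p = 0.0217) and a measured one of 0.29. Pgam1 in FVB/N nodes was 10.42, 10.68 and 10.21, inside or below the lymphoma range of 10.34 to 11.08, with a fitted rise of 0.48 (SE 0.15, limma adjusted p = 0.0334) and a measured one of 0.24. Neither was called with a batch term (adjusted p = 0.0857 and 0.33), nor without the 2 spleens with raised pancreas genes (adjusted p = 0.0602 and 0.313). Fits without 1 mouse kept 8 and 6 of 15 calls. Over all 15 the differences ran from 0.36 to 0.81 for Pgk1 and from 0.10 to 0.87 for Pgam1. Both were lost without asymptomatic mouse 1, 3 or 4, FVB/N mouse 3 or lymphoma mouse 1, 2 or 6, and Pgam1 also without asymptomatic mouse 2 or FVB/N mouse 2. Bnip3 (0.77, SE 0.27, adjusted p = 0.0551) was called in 6 of those 15 fits, without asymptomatic mouse 3, 5 or 6, FVB/N mouse 1 or 2 or lymphoma mouse 5. Hif1a in lymphoma nodes (8.66 to 9.09) lay below all FVB/N nodes, as 8.25% of genes did, but with surrogate variables its difference of -0.29 was not called (adjusted p = 0.165), while with a batch term it was.

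Between the tissues of mice of the same state, 1 call was made. In FVB/N mice Hk2 was called lower in lymph node than in spleen, 1 of 10 against 2.13% of all genes that were lower, with a fitted -1.23 (SE 0.31, limma adjusted p = 0.0235) and a measured -0.26. Its FVB/N nodes were 6.42, 7.82 and 6.91, around the spleen values, and the call was absent with groups alone (adjusted p = 0.841). Only the fits without asymptomatic mouse 2 or lymphoma mouse 2, 3 or 5 kept it among 15. Over all 15 the difference ran from -1.81 to -1.07. Slc2a1 was lower in every FVB/N node (10.02 to 10.42) than in every FVB/N spleen (10.62 to 10.74), while Pgk1 and Pgam1 were higher in every node. Gaps of this kind were common, since 18.0% of all genes were lower and 9.44% higher without overlap in this comparison of 3 with 3. With surrogate variables Slc2a1 was -0.19, Pgk1 -0.12 and Pgam1 -0.02, and none was called. The measured Pgk1 and Pgam1 differences of 0.25 and 0.33 had the opposite sign.

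In asymptomatic mice limma called 0 of 10 between the tissues, against 5.62% of all genes, and Ldha alone had an unadjusted p under 0.05 (0.40, SE 0.14, adjusted p = 0.0998). Vegfa in asymptomatic nodes (7.22 to 9.44) was above all asymptomatic spleens (6.64 to 6.95), as 4.18% of all genes were. Its measured difference of 1.82 became 0.35 with surrogate variables (SE 0.31, adjusted p = 0.612), while with a batch term it was called (adjusted p = 0.000974). The 12 endothelial genes averaged 7.50 to 8.95 in these nodes and 6.51 to 6.66 in the spleens, and their part in the Vegfa difference was not tested. In lymphoma mice the 2 tissues gave close levels for all 10 genes, with measured differences between -0.03 and 0.14. There 0 were called by limma, against 0.0552% of all genes, and 0 had an unadjusted p under 0.05. The widest fitted difference there was that of Bnip3 (0.29, SE 0.16, adjusted p = 0.671).

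Other genes of the same pathways were counted from 5 lists with 85 measured genes. In spleen, lymphoma against asymptomatic, 8 of these 85 rose and 7 fell, against 8.58% and 7.25% of all genes. Their median fitted difference was -0.11 and that of the 10 genes -0.09, beside -0.03 for all genes. Of 23 other genes of glucose transport, glycolysis and lactate handling, 1 rose and 3 fell. Of 12 genes for the entry of pyruvate into mitochondria 1 rose and 1 fell, and of 13 oxygen-sensing genes 0 were called by limma. Of 28 other hypoxia targets 5 rose and 2 fell, and of 9 VEGF ligands and receptors 1 rose and 1 fell.

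The muscle enolase gene Eno3 fell in lymphoma spleen from 8.92 ± 0.16 to 8.14 ± 0.26 (fitted -0.88, SE 0.19, limma adjusted p = 0.00229). Ldhb, the lactate dehydrogenase subunit that favours pyruvate, went from 7.11 ± 0.21 to 6.32 ± 0.25 (fitted -1.09, adjusted p = 0.00648). Among the pyruvate dehydrogenase kinases, which hold pyruvate back from the mitochondria, Pdk3 rose by 0.58 (adjusted p = 0.000277) and Pdk2 fell by 1.33 (adjusted p = 0.00112). Of the hypoxia targets that rose, Anln changed most, from 6.38 ± 0.36 to 8.73 ± 0.32 (fitted 2.36, adjusted p = 2.12e-06), and it encodes anillin, a protein of dividing cells. Cited2 (0.93, adjusted p = 0.000274), Ddit4 (1.17, adjusted p = 0.0076) and Higd1a (0.59, adjusted p = 0.031) rose as well, where Cited2 restrains hypoxia-inducible factor and Ddit4 restrains mTORC1. Stc2, a secreted glycoprotein gene, fell (-0.60, adjusted p = 0.00693). Vldlr was called lower (-0.72, adjusted p = 0.011) although its measured difference was -0.11. The lymphatic growth factor gene Vegfc rose (1.06, adjusted p = 0.000704) and the VEGF co-receptor gene Nrp1 fell (-1.11, adjusted p = 0.00342). Without lymphoma mouse 5 the Vegfc difference was 0.28 and not called (adjusted p = 0.204). With a batch term Ddit4, Higd1a, Ldhb and Vldlr were not called (adjusted p = 0.0844, 0.146, 0.0627 and 0.904), and without 1 mouse Higd1a and Vldlr were called in 9 of 15 fits each.

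In lymph node 8 of the 85 rose and 23 fell, against 11.6% and 12.5% of all genes, and their median was -0.18 beside -0.16 for the 10 genes and -0.02 for all genes. Of the 9 VEGF ligands and receptors 5 fell and 0 rose by limma, among them Nrp1, from 9.07 ± 0.90 to 6.33 ± 0.42 (fitted -1.74, SE 0.28, adjusted p = 6.81e-05). The receptor genes Flt1, Kdr, Flt4 and Nrp2 completed that count. In the same comparison 10 of 12 endothelial genes fell, their list averaging 7.50 to 8.95 in asymptomatic and 6.59 to 7.07 in lymphoma nodes, and their part in the fall of the receptors was not tested. Of the 23 other glycolysis genes 3 rose and 6 fell, with Eno3 (-1.26, adjusted p = 0.000113), the neuronal enolase gene Eno2 (-1.15, adjusted p = 9.39e-06) and Ldhb (-2.04, adjusted p = 2.02e-05) among the falls. Slc16a1, the lactate and pyruvate carrier MCT1, rose from 9.14 ± 0.86 to 9.91 ± 0.67 (fitted 1.09, SE 0.32, adjusted p = 0.0148), and its call was lost with a batch term (0.77, adjusted p = 0.0692). Without 1 mouse that difference ran from 0.21 to 1.65, and the call was lost without asymptomatic mouse 1 or 4 or lymphoma mouse 1 (adjusted p up to 0.798).

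Among the 28 other hypoxia targets in node 4 rose and 5 fell. Anln (3.02, adjusted p = 1.57e-07), Cited2 (0.91, adjusted p = 0.000639), Mxi1 (0.48, adjusted p = 0.00274) and the carbonic anhydrase gene Car9 (0.52, adjusted p = 0.0196) were the rises. Mxi1 and Car9 had a measured difference of 0.21 each and were not called with a batch term (adjusted p = 0.113 and 0.21), and Car9 was not called without asymptomatic mouse 6 or lymphoma mouse 3 or 5 (as low as 0.25). Stc2 (-1.28, adjusted p = 4.05e-06) and Angptl4, a fat and fasting gene (-2.0, adjusted p = 2.53e-05), were among the falls, and Angptl4 lay at 8.74 ± 1.10 in asymptomatic and 6.39 ± 0.16 in lymphoma nodes. Of 12 pyruvate entry genes 1 rose, Pdk3 (0.71, adjusted p = 5.93e-05), and 3 fell. Of 13 oxygen-sensing genes 4 fell, namely Epas1, which encodes the endothelial hypoxia-inducible factor 2 subunit, Arnt2, Egln1 and Egln2.

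**Figure D4:**
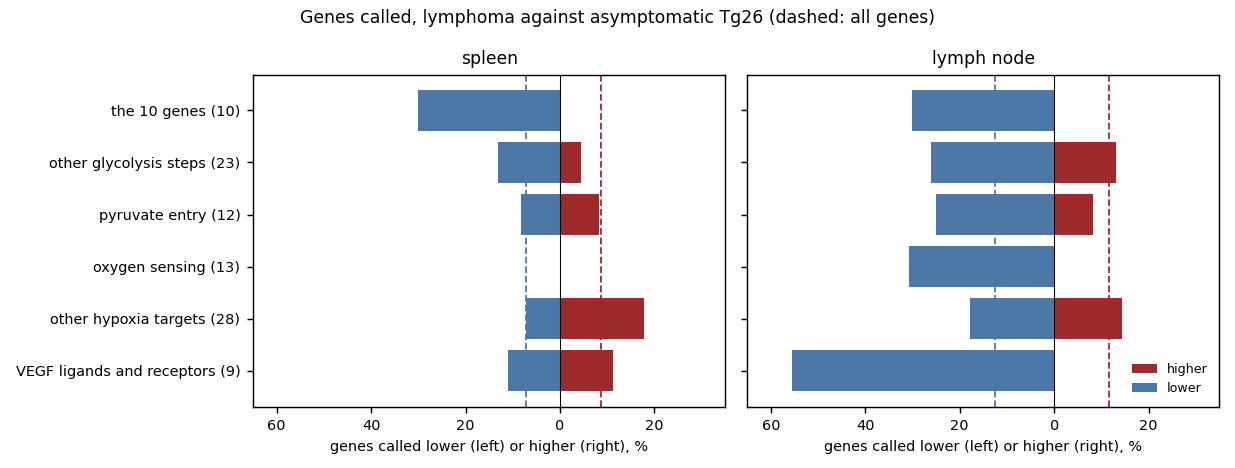
Share of genes called lower (left) or higher (right) with lymphoma against asymptomatic mice, in % of the measured genes of each list (number in brackets), in spleen and lymph node; dashed lines give the share of all genes. The 10 genes have 30% called lower and 0 called higher in both tissues, and 5 of 9 VEGF ligands and receptors are called lower in lymph node.

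Asymptomatic against FVB/N called 1 of 85 higher and 0 lower in spleen, against 0.617% of all genes in either direction, namely Bpgm (0.99, adjusted p = 0.0343), the red cell enzyme that makes 2,3-bisphosphoglycerate, and a batch term ended that call (adjusted p = 0.934). In lymph node 5 were higher and 1 was lower, against 1.34% and 0.592% of all genes, with Angptl4 (1.35, adjusted p = 0.0166) and Pdk4 (2.59, adjusted p = 0.0215) higher in the asymptomatic nodes, where 7 of 17 adipose and muscle genes were called higher too. The mitochondrial pyruvate carrier gene Mpc1 was also higher there (0.91, adjusted p = 0.0216), and Car12 was lower (-1.36, adjusted p = 0.0253). None of these 4 was called with a batch term, and fits without 1 mouse kept 7 to 11 of 15 calls.

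Lymphoma against FVB/N called 4 of 85 higher and 5 lower in spleen, against 7.10% and 5.25% of all genes, and 8 higher and 7 lower in lymph node, against 8.59% and 7.98%, shares close to those of all genes or below them. In spleen Anln (2.34, adjusted p = 4.85e-05), Pdk3 (0.66, adjusted p = 0.000931) and Ddit4 (1.60, adjusted p = 0.0042) led the rises and Stc2 (-0.81, adjusted p = 0.0042), Pdk2 (-1.20, adjusted p = 0.0172) and Ldhb (-1.18, adjusted p = 0.0193) the falls, the last 2 of which were not called with a batch term (adjusted p = 0.197 and 0.152). In node Slc16a1 rose by 2.09 (adjusted p = 0.000402), with FVB/N at 8.01 ± 0.15 and lymphoma at 9.91 ± 0.67, beside Anln (2.98, adjusted p = 4.16e-06) and Car9 (0.82, adjusted p = 0.0035, and 0.0749 with a batch term). Eno2 (-1.44, adjusted p = 9.08e-06), Stc2 (-1.46, adjusted p = 1.40e-05) and Eno3 (-1.45, adjusted p = 0.000272) fell.

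Between the tissues, 4 of 85 were higher and 2 lower in the nodes of FVB/N mice, against 2.14% and 2.13% of all genes, with Eno2 (1.22, adjusted p = 0.000892), Arnt2 (0.67, adjusted p = 0.0121) and Stc2 (0.86, adjusted p = 0.0131) higher. Pfkfb4 (-0.55, adjusted p = 0.0255) and Bhlhe40 (-1.67, adjusted p = 0.0383) were lower, calls that 8 and 3 of 15 fits without 1 mouse kept (adjusted p up to 0.62 and 0.246). In asymptomatic mice 11 were higher and 2 lower, against 3.36% and 2.26% of all genes, led by Epas1 (1.89, adjusted p = 0.000684), Eno2 (0.94, adjusted p = 0.00144) and Stc2 (0.89, adjusted p = 0.00308), with Bpgm (-1.12, adjusted p = 0.00823) and Mxi1 (-0.49, adjusted p = 0.0126, and 0.115 with a batch term) lower. In lymphoma mice 0 of 85 were called by limma. Eno2 was the gene whose lymphoma difference differed between the tissues (node minus spleen -0.86, SE 0.20, adjusted p = 0.0496), against 0.572% of all genes, and 5 of 15 fits without 1 mouse kept that call.

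Bnip3, Pgam1 and Pgk1 had more than 1 probe set, and the measured differences of the sets not used were compared with those of the sets used. For lymphoma against asymptomatic spleen, the second Bnip3 set gave 0.65 beside 0.66, the other Pgam1 sets 0.37 and 0.40 beside 0.48, and the other Pgk1 sets 0.46 beside 0.57. In lymphoma against FVB/N nodes, where Pgk1 and Pgam1 were called higher, the other Pgam1 sets gave 0.26 and 0.01 beside 0.24. There the Pgk1 sets not used gave 0.02 beside 0.29. In asymptomatic against FVB/N nodes Pgk1 gave -0.21 in the sets not used and 0.08 in the set used. Both of these other Pgk1 sets held the same values on every array. Glycolytic genes have near-identical copies elsewhere in the mouse genome that can share signal with these probe sets, so which copy gave it is uncertain.

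The genes with the most similar pattern were found from the 6 group means, each centred on its gene's own mean, by the root mean square difference over these 6 values. Slc2a1 was matched most closely by Nfkbie (0.014, against a spread of 0.357 of Slc2a1 itself) and then by Chd2 (0.042). Hif1a was nearest to Edem2 (0.047) and Use1 (0.051), Pgk1 to Pcdhb20 (0.044) and Gna12 (0.051), and Pgam1 to Afap1 (0.041) and St6galnac6 (0.058). For Aldoa the nearest genes were Nudt7 and Dync2li1 (0.054 each), for Bnip3 they were Idh3a (0.096) and Sucla2 (0.121), and for Pfkl they were Hrct1 (0.055) and Tmem79 (0.057). Ldha was nearest to Gpr63 (0.038) and Fsd2 (0.051), Hk2 to Sec14l4 (0.103) and Gnao1 (0.114), and Vegfa to Dbi (0.186) and Armcx1 (0.194). The search ran over all genes, so close matches over 6 values are a description only.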

How the data were processed

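Total RNA was measured on Affymetrix GeneChip Mouse Gene 1.0 ST arrays, and the authors made the deposited log2 levels with fRMA, a frozen robust multiarray method, per the series' design text. The table was used as deposited: 35557 probe sets, of which 1 had no values, with levels from 2.07 to 14.43 and array medians from 6.67 to 6.89. Per platform annotation 21789 probe sets had 1 symbol, 1621 several and 12146 were not listed. Signal over background was not assessed, and precision is limited by the number of arrays.

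Groups came from title and description. A model of all 30 arrays was fitted in limma 3.58.1 (R 4.3.3) with 6 groups and 6 surrogate variables, as the design text names them, computed here with an iteratively re-weighted algorithm (5 iterations, number from 20 permutations at p 0.1). The authors' number of surrogate variables is not given in the sources used here. Calls are Benjamini-Hochberg adjusted p under 0.05 over 19938 genes. The fit was tested on simulated data. Measured differences are differences of group means. Replicates within a group are different mice, per the labels. The p-values rest on the spread between arrays within groups that the surrogate variables leave, pooled over all 6 groups. In this fit the spleen and node arrays of a mouse counted as independent.

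Spleen and node of the same mouse are paired by animal: deviations from group means correlated at 0.137 to 0.675 in Tg26 mice and -0.014 to 0.052 in FVB/N, and blocking on mouse changed no call of the 10 genes. Alternatives were no surrogate variables, a batch term, batch with neighbouring-tissue list levels, each batch alone, replicate blocks, quantile normalization, no dim genes, mean of probe sets, no nodes with raised lists and 1 mouse left out. Leaving out the 2 arrays against their tissue label, the 2 spleens with raised pancreas genes, or the 2 mice with high Xist (over 8) was chosen after seeing the data. Numbers are shared between mice of different states, and same-numbered lymphoma and asymptomatic arrays correlated at 0.228 to 0.497 in spleen, and at 0.084 to 0.237 in node, so the number block stands beside the spleen results. Named were all 10 genes, the 6 called pathway genes with the smallest adjusted p per direction for lymphoma against asymptomatic mice and 3 elsewhere, and the 2 nearest patterns per gene. Genes given without values only complete a count. The members and lists were chosen with earlier results of these data known. RefSeq GRCm38.p6 supplied current symbols and promoter sequences, and all 10 members matched.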

Additional observations from a re-analysis of the deposited data

Results flagged for a closer look

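In 40 combinations of gene and group of 6 arrays, 3 held an array set apart from the other 5 by most of the group's range, and chance gives about 1 in 20. Slc2a1 in the lymph node of asymptomatic mouse 1 was 10.69, the highest of its group, whose other nodes lay between 10.05 and 10.28. Pfkl in the spleen of asymptomatic mouse 4 was 7.87, below 8.32 to 8.50 in the other 5. Pfkl in the spleen of lymphoma mouse 6 was 7.96, below 8.54 to 8.65 in the other 5.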

How the results depend on the processing

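The count of the 10 genes called for lymphoma against asymptomatic spleen was 3, and became 5 with a batch term, 8 with batch and neighbouring-tissue lists or without the raised nodes and 1 within batch B. In lymph node it was 3, and became 1 within batch A, within batch B or without the raised nodes. For asymptomatic against FVB/N nodes 1 call became 0 with groups alone, a batch term, batch and lists, batch A alone, quantile normalization, the mean of probe sets, no raised nodes, no spleens with raised pancreas genes or no mice with high Xist, and 2 without the 2 arrays against their tissue label. For lymphoma against FVB/N, 3 became 6 in spleen without the raised nodes, and 2 in node became 1 with groups alone, a batch term, batch A alone or the mean of probe sets, 4 without the dimmest genes, 5 without the 2 arrays, 0 without the spleens with raised pancreas genes and 6 without the mice with high Xist. The 1 call between FVB/N tissues became 0 with groups alone, a batch term, batch and lists, batch A alone, quantile normalization, no dimmest genes, no raised nodes or no mice with high Xist. Between asymptomatic tissues 0 became 3 with groups alone, 4 with a batch term, 1 within batch B, 2 without the 2 arrays and 1 without the mice with high Xist. The last 3 kinds of omission (arrays against their label, spleens, mice with high Xist) were chosen after seeing the data. The cause of these shifts was not tested. The share of all genes called moved with the fit too, so these counts are not results about the 10 genes alone. In lymphoma against asymptomatic spleen 8.58% of all genes rose and 7.25% fell with surrogate variables. With a batch term these shares were 9.85% and 10.3%, and with batch and lists 11.2% and 12.2%. The other counts in this paragraph are given without the share of all genes. Leaving out 1 mouse gave 1 to 6 calls (lymphoma against asymptomatic spleen), 0 to 4 (node), 0 to 1 and 0 to 2 (asymptomatic against FVB/N spleen and node), 1 to 5 and 0 to 7 (lymphoma against FVB/N), 0 to 1 and 0 to 2 (FVB/N and asymptomatic tissues) and 0 to 0 for the remaining comparisons.

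With the mouse number as a replicate block, the counts were 5 in lymphoma against asymptomatic spleen and 0 in asymptomatic against FVB/N nodes. Numbers 1 to 3 are batch A and 4 to 6 batch B. Lymphoma and asymptomatic spleens of different numbers in the same batch correlated at 0.152 to 0.429 (median 0.264), beside a median of 0.276 for the same number, so number and batch cannot be told apart there. Pairs with FVB/N over numbers 1 to 3 ran from -0.137 to 0.756.

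Of all 100 differences of a gene in a comparison, 57 changed sign in at least 1 of these fits and 45 in at least 1 fit without 1 mouse. Of the 41 called in at least 1 of these fits, 15 changed sign. In lymphoma against asymptomatic spleen, Hk2 was 0.46 with groups alone, a batch term or the number block, 0.51 with batch and lists, 0.39 and 0.52 within batches A and B, 0.53 without the raised nodes and 0.47 without high Xist. Bnip3 there was 0.66 with groups alone, a batch term or the number block, 0.70 with batch and lists, 1.02 and 0.30 within batches A and B, 0.15 with the mean of probe sets, 1.06 without the raised nodes, 0.34 without the 2 arrays, 0.05 without the 2 spleens and 0.67 without high Xist. In lymph node Hk2 was 0.87 with batch and lists, 0.46 without the raised nodes and 0.24 without high Xist, and Vegfa was -0.39 with groups alone, a batch term or the number block and -1.02 within batch B. In lymphoma against FVB/N spleen, Hk2 was 0.14 with groups alone and without the raised nodes and 0.01 with the number block. Bnip3 there was 0.93 with groups alone, 0.76 with a batch term, 0.75 with batch and lists, 1.02 within batch A, 0.84 with the number block, 0.02 with the mean of probe sets, 1.22 without the raised nodes, 0.27 without the 2 arrays and 0.58 without high Xist. Vegfa there was 0.60 with groups alone, 0.56 with a batch term, 0.64 with batch and lists, 0.85 within batch A, 0.74 with the number block, 1.48 without the raised nodes and 0.87 without high Xist. In nodes of the same comparison Pfkl was -0.04 without the raised nodes and Vegfa -0.15 with the number block. In asymptomatic against FVB/N nodes Pfkl and Pgam1 were -0.07 each and Bnip3 -0.05 with batch and lists. Between asymptomatic tissues the same fit gave Hk2 -0.38, Pfkl -0.09 and Bnip3 -0.17, and Hk2 was -0.04 without the raised nodes and -0.02 without the 2 spleens.

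Among those 41, leaving out 1 mouse changed the sign of Hk2 (-0.66 to 0.29), Pgam1 (-0.11 to 0.51), Ldha (-0.10 to 0.44) and Bnip3 (-0.45 to 0.49) in lymphoma against asymptomatic spleen, and of Hk2 (-0.63 to 0.27) and Vegfa (-0.22 to 1.20) in node. It did so against FVB/N for Pgam1 (-0.02 to 0.61), Bnip3 (-0.50 to 0.49) and Vegfa (-0.74 to 0.78) in lymphoma spleen and for Hk2 (-0.11 to 1.08), Pfkl (-0.05 to 1.00) and Vegfa (-0.18 to 1.60) in lymphoma node. Between asymptomatic tissues it did so for Bnip3 (-0.21 to 0.96) and Hk2 (-0.20 to 0.51). Over all genes, calls for asymptomatic against FVB/N fell from 123 to 23 in spleen and from 386 to 13 in node with groups alone, and those between asymptomatic tissues rose from 1120 to 2388. Of the 85 other pathway genes, a batch term moved the falls with lymphoma against asymptomatic mice from 7 to 13 in spleen and the rises from 8 to 5 in node.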
